A study of Mus musculus with 29 samples.

Results

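EGFP-labelled podocytes taken from mice 7 days after the immunotoxin LMB2 were compared with those taken at day 0. The comparison uses 8 of the 29 arrays of the series, chosen by their titles, which give day, mouse and label: mice MC122, MC731, MC742 and MC753 at day 0, and the other mice MC221, MC791, MC824 and MC943 at day 7. All were male Pod-hCD25T/G animals on C57BL/6J, 8 weeks old. LMB2 is a toxin coupled to an antibody fragment that binds human CD25. It was given at 25 ng/gBW, and the protocol lists a heminephrectomy ahead of it. Day 0 cells were taken before the injection. The labels do not say whether the day 0 mice had been operated, so toxin, operation and elapsed time cannot be told apart here. From what is known of the study, not from its labels, EGFP marks podocytes that lack human CD25 and TdTomato marks those that carry it. EGFP cells are then podocytes the toxin does not bind, in glomeruli where other podocytes are hit. The labels name neither the promoter of the transgene nor the gate or purity of the sort. EGFP cells at day 4 (4 mice), TdTomato cells at day 0 (4 samples, from the same mice as the EGFP cells) and TdTomato cells at day 7 (2 samples, mice MC221 and MC791) serve as further points of comparison.

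Podocytes wrap the glomerular capillaries with foot processes joined by slit diaphragms, and they make the basement membrane beneath them together with the endothelium. They do not normally divide, and a lost podocyte leaves bare membrane that its neighbours have to cover. Injured podocytes are known to lose their foot processes, to rebuild their actin skeleton, to take up desmin and to secrete matrix, proteases and chemokines.

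Each value is a log2 signal from which the 75th percentile of its array was subtracted, so 0 is the level of that percentile. Values of single mice are listed in the order of the mice given above. Each gene is given by its brightest probe. Among called genes besides Shisal1 below, the smallest change of another probe was under 50% of that given in Cdkn1a (0.60), Col16a1 (0.56), H2-K1 (0.33), Magi1 (0.38), Nid1 (0.52) and P2rx7 (1.96). Genes not called are outside this list. Differences carry the standard error of limma, p-values are limma's after Benjamini-Hochberg adjustment over 15626 genes at a threshold of 0.05, and n = 4 and 4 throughout unless another n is given. A fold is given as "at least" for a gene not well above background on any array of its lower group. In bulk samples, fewer cells of a type and less RNA per cell cannot be told apart.

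Between 54.9% and 59.7% of spots were well above background on the day 0 arrays and between 48.2% and 55.9% at day 7, and no spot was saturated. Across genes the arrays of a group correlated at 0.975 to 0.987 (day 0) and 0.972 to 0.986 (day 7), the 3 lowest of the day 7 pairs being those with MC221. The sorted cells carried the podocyte label's own markers: all 30 measured podocyte identity genes were above background on all 8 arrays, and their summed signal ran from 3442 to 4634 at day 0 and from 3074 to 3658 at day 7. Markers of other kidney cells were far fewer in signal but not at 0. The summed signal of 26 endothelial genes was 326 to 420 at day 0 and 247 to 262 at day 7, with no overlap, although limma called 0 of the 26 (0 higher and 2 lower at an unadjusted p under 0.05) and Erg and Vwf were not above background on any of the 8 arrays. The list includes Cldn5 and Plat, which podocytes express too. In log2, Plat went from 7.16, 7.28, 7.52 and 7.37 to 6.27, 6.96, 6.73 and 6.82 and was not called (-0.64 ± 0.24, adjusted p = 0.12). The part of Plat in the lower sum was not tested. Distal nephron markers summed to 4.11 to 13.1 at day 0 and to 2.87, 6.25 and 6.52 in 3 day 7 mice, but to 50.1 in MC221, where Umod, the uromodulin of the thick ascending limb, stood at 4.51 against -0.53, -1.54 and -4.81 in the other day 7 mice. Without MC221 the test called 777 genes higher and 288 lower, in place of the 834 and 300 given next. Proximal tubule markers summed to 6.25 to 10.9 and 7.15 to 17.5, parietal markers to 15.4 to 21.0 and 16.8 to 19.3, lymphocyte markers to 3.76 to 6.96 and 4.23 to 5.82, and erythrocyte and platelet markers to 0.195 to 4.45 and 0.228 to 1.40.

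**Figure D1:**
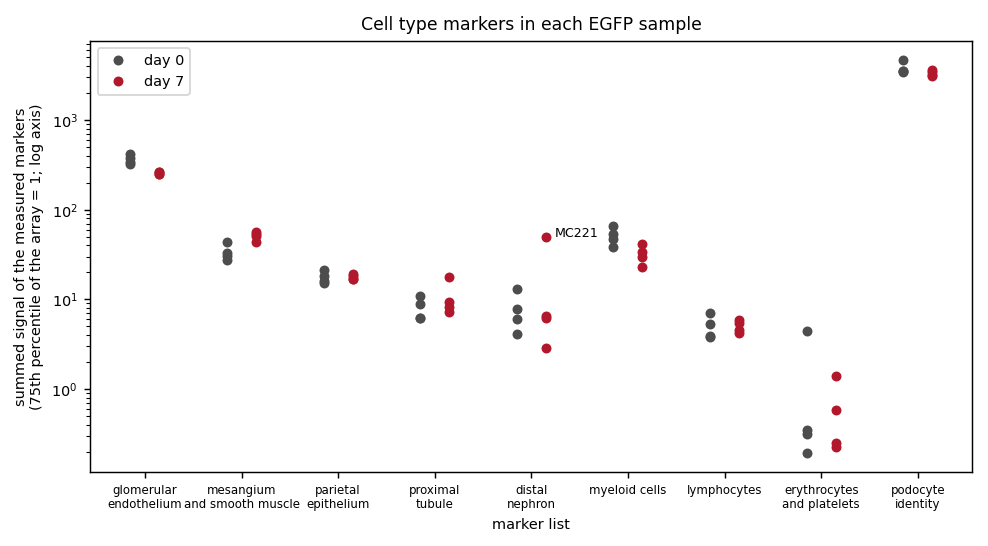
Summed linear signal of the measured markers of each cell type (vertical axis, log scale, 75th percentile of the array = 1) in the 4 day 0 samples (grey) and the 4 day 7 samples (red) of EGFP podocytes. Podocyte genes lie between 3074 and 4634 in every sample, endothelial markers are lower in all 4 day 7 samples than in any day 0 sample, and distal nephron markers reach 50.1 in MC221 alone. The endothelial markers include Cldn5 and Plat, which podocytes express too.

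The question was which genes differ in podocytes that the toxin does not bind once their neighbours have been injured for a week. Of the 15626 genes, 834 rose (5.34%) and 300 fell (1.92%), so 73.5% of the calls were rises. Rises were also larger: 268 genes rose by over 2 on the log2 scale and 45 by over 4, while 6 fell by over 2 and 0 by over 3. The median change was 1.47 in the genes that rose, -0.81 in those that fell and -0.0041 over all genes. Values of both groups did not overlap in 1063 of the 1134 called genes. Over all genes tested, called or not, 7.99% had every day 7 value above every day 0 value and 5.6% had every value below. Of the genes that rose, 107 were not well above background on any day 0 array, 87 were on 1 to 3 and 640 on all 4. Of those that fell, 257 were still above background on all 4 day 7 arrays and 16 on none.

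The arrays lay on 4 slides, 3 of which held samples of both days. With slide as a block in the fit, 1436 genes rose and 1165 fell. Fits that left out 1 of the 8 samples kept 680 calls in every case, 555 of them rises. The count of falls was the less stable, 161 without MC943 and 198 without MC742. A gene named below as changed kept its call in all 8 such fits unless said otherwise. Of the gene lists described below, 21 had 0 members called lower by limma, and 0 to 5 members of each were lower at an unadjusted p under 0.05.

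**Figure D2:**
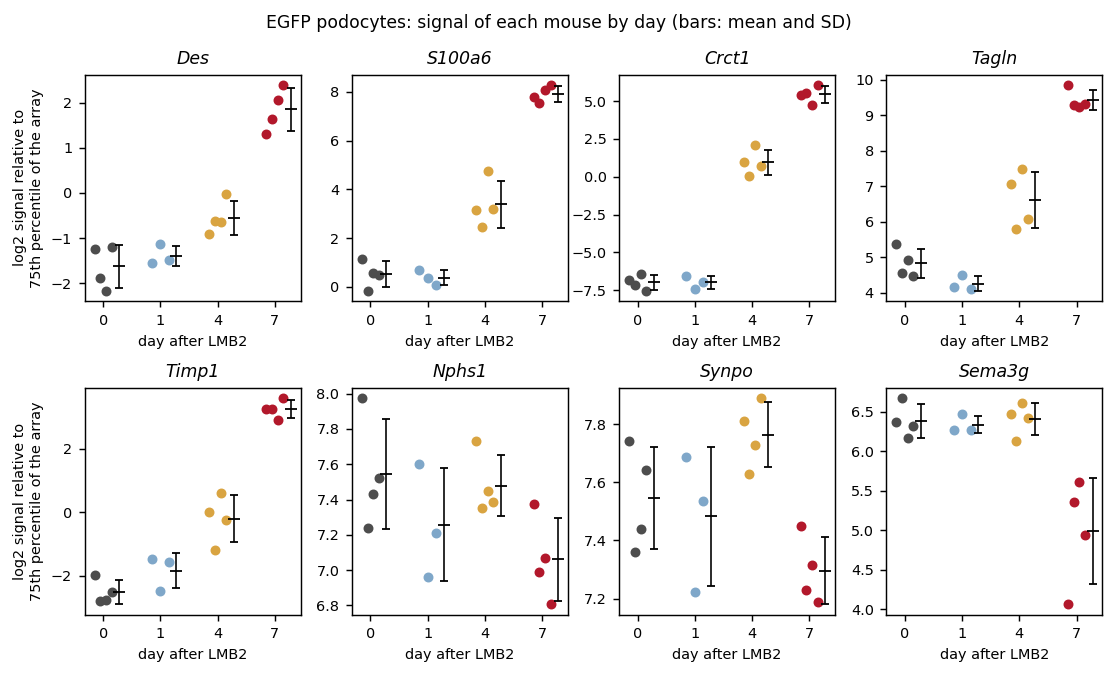
Log2 signal above or below the 75th percentile of that array (vertical axis) of 8 genes in each mouse of the EGFP population at days 0, 1, 4 and 7 (horizontal axis), with the mean and SD of each day at the right of its points. Des, S100a6, Crct1, Tagln and Timp1 lie above every day 0 value in all 4 day 7 mice, Sema3g lies below, and the podocyte genes Nphs1 and Synpo overlap between both days.

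Desmin (Des), the intermediate filament protein long used to stain injured podocytes, stood at -1.25, -1.88, -2.17 and -1.20 at day 0 and at 1.30, 1.64, 2.07 and 2.40 at day 7. Every day 7 mouse lay at least as far above the highest day 0 mouse as the day 0 mice lay apart. The difference was 3.48 ± 0.26 (adjusted p = 1.7e-09), and within the 3 slides it was 3.53, 4.40 and 2.55. S100a6, a calcium-binding S100 protein, stood at 1.15, -0.16, 0.57 and 0.50 and then at 7.78, 7.53, 8.07 and 8.28. It differed by 7.40 ± 0.43 (adjusted p = 1.8e-11), by 7.69, 7.6 and 6.63 within slides. Crct1, a small cysteine-rich protein of the skin's epidermal differentiation complex, was not above background on any day 0 array (-6.84, -7.16, -6.40 and -7.55) and stood at 5.42, 5.53, 4.72 and 6.07 at day 7. Its signal was at least 1474-fold higher (adjusted p = 2.8e-12), and it was the largest difference among the genes past the detection rule.

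Beyond these markers the 20 largest rises took in secreted, contractile, receptor and signalling genes. Col5a3, a chain of fibrillar collagen V, went from -3.28, -4.08, -3.89 and -3.03 to 4.64, 4.88, 4.17 and 5.01. Thbs4, a thrombospondin of the matrix, went from -6.71, -7.05, -7.21 and -7.40, none of them above background, to -0.01, 0.29, 0.43 and 1.04. Mmp10, the metalloproteinase stromelysin-2, went from -6.0, -6.13, -7.20 and -5.08 to -1.31, -0.32, 0.41 and 0.68. Both groups stood apart in each of these genes, which the rule for the 20 largest rises required.

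Less familiar genes in podocytes were among the 20. P2rx5, an ATP-gated cation channel, stood at -1.44, -2.51, -2.53 and -1.49 and then at 3.54, 3.57, 3.70 and 3.84, a difference of 5.65 ± 0.34 (adjusted p = 3.3e-11). Epha6, an ephrin receptor, was not above background at day 0 and reached -0.52, 0.07, -0.05 and 0.34, at least 33.1-fold more (adjusted p = 2.1e-09). Bmper, a secreted binder of BMPs, reached -1.48, -0.93, -0.32 and -0.28 from no day 0 array above background, at least 19.9-fold more (adjusted p = 5e-05). Padi4, which turns arginine in proteins into citrulline, went from a range of -4.97 to -3.32 to one of 1.11 to 2.41. Rnd1, a small GTPase that loosens stress fibres, differed by 4.70 ± 0.53, Cav3, the muscle caveolin, by 4.62 ± 0.52, and Slco1a5, an organic anion carrier, by 4.61 ± 0.40 (adjusted p = 1.1e-06, 1e-06 and 2.4e-08). Unc13c, a vesicle-priming protein, and Msln, mesothelin, were not above background at day 0 and rose at least 6.68-fold and 6.11-fold. Msln stood at -2.97, -3.20, -2.03 and -1.72 in the day 7 mice.

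Falls were smaller. Shisal1, a single-pass membrane protein, went from -0.70, -1.60, 0.19 and -0.34 to -2.36, -3.80, -3.26 and -3.70, a difference of -2.67 ± 0.46 (adjusted p = 0.00032), while its other probe differed by -0.24. Adra2c, an adrenergic receptor, went from 2.40, 1.95, 2.58 and 2.26 to 0.54, 0.51, -0.48 and -0.45 (-2.27 ± 0.27, adjusted p = 2.8e-06). Kcna6, a voltage-gated potassium channel, went from 3.26, 2.27, 2.89 and 2.03 to 0.35, 1.51, 0.58 and -0.28 (-2.08 ± 0.38, adjusted p = 0.00069). In each of these probes the groups stood apart, which the rule for the largest falls required. Another 3 genes fell while staying above background on all 8 arrays. Cacna2d2, an accessory calcium channel subunit, fell by 1.66 ± 0.17 with day 7 values close together (0.53, 0.44, 0.22 and 0.44). Gja3, a connexin, fell by 1.69 ± 0.39, and H2bc18, a histone gene, fell by 1.61 ± 0.39 (adjusted p = 2.1e-07, 0.0056 and 0.01).

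**Figure D3:**
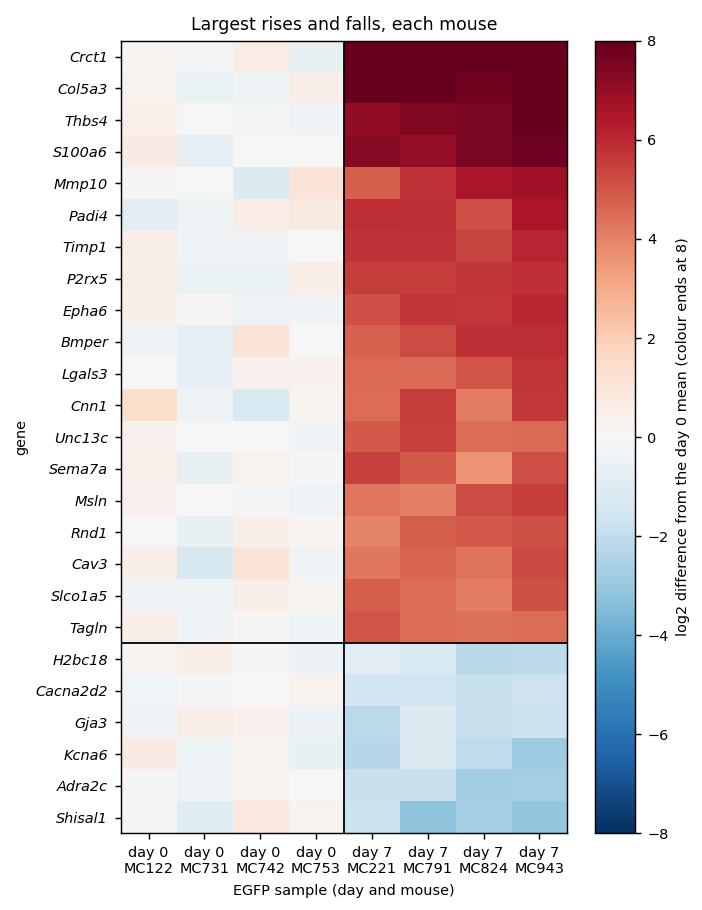
Difference of each mouse from the day 0 mean (colour, log2, ending at 8) for 19 of the 20 largest rises and 6 of the 12 largest falls in EGFP podocytes, with the 4 day 0 mice at the left and the 4 day 7 mice at the right. Rises from Crct1 at the top to Tagln are red in all 4 day 7 mice, and the falls are paler, none of their differences exceeding 2.67 on average. The rule that chose these genes required groups without overlap.

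Most podocyte genes were not called, which was also so for 14492 of all 15626 genes (5.34% rose and 1.92% fell). Of 26 measured slit diaphragm genes 2 rose and 0 fell, with a median change of -0.09. Of 34 foot process surface and actin genes 2 rose and 2 fell (median -0.07), and of 27 podocyte transcription factors limma called 0 higher and 0 lower (3 and 5 at an unadjusted p under 0.05, median -0.11). Nphs1, which encodes nephrin of the slit diaphragm, stood at 7.97, 7.24, 7.43 and 7.52 at day 0 and at 7.37, 6.99, 7.07 and 6.81 at day 7. The ranges overlapped, and the difference was -0.48 ± 0.17 (adjusted p = 0.088). It passed without MC221 (-0.59, adjusted p = 0.045), with slide as a block (0.004), with another background correction (0.037) and with quantile normalization (0.024). Podxl (podocalyxin, the main sialoprotein of the cell's coat) differed by 0.01 ± 0.28, Synpo (synaptopodin, an actin binder) by -0.25 ± 0.14, and Wt1, a transcription factor of the lineage, by -0.38 ± 0.21 (adjusted p = 0.99, 0.34 and 0.34). The other probe of Synpo differed by 0.48, in the opposite direction.

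Of the 30 podocyte identity genes 3 fell (10%, against 1.92% of all genes) and limma called 0 higher (2 at an unadjusted p under 0.05), 8 lay above 0, and the median was -0.21. The 3 were Sema3g, Thsd7a and Vegfa. Sema3g, a secreted semaphorin, stood at 6.37, 6.67, 6.17 and 6.31 and then at 4.06, 5.35, 5.60 and 4.94 (-1.39 ± 0.26, adjusted p = 0.00092). Thsd7a, a surface protein known as an antigen in membranous nephropathy, stood at 7.36, 7.70, 7.58 and 7.20 and then at 6.21, 6.98, 6.5 and 6.30 (-0.96 ± 0.23, adjusted p = 0.0082). Neither gene's day 7 values reached its day 0 values, although Thsd7a was not called with quantile normalization (adjusted p = 0.069). Vegfa, the growth factor that podocytes send to the endothelium, differed by -0.57 ± 0.18 and only just passed (adjusted p = 0.049). It kept the call in 1 of the 8 fits without a sample, the one without MC824, and the difference in the 8 ranged from -0.65 to -0.49. With the mouse as a random replicate block the adjusted p was 0.056. On the rising side of these lists was Itgb1, the beta chain of the laminin-binding integrin of podocytes (1.11 ± 0.22, adjusted p = 0.0017). Magi1 and Iqgap1, the 2 slit diaphragm list members that rose, lost the call without MC221 (Magi1), or without MC731, MC753 or MC824 (Iqgap1).

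Of 23 measured basement membrane genes 5 rose, 0 fell and 18 were not called (median 0.28, and 0.63, -0.02 and 0.57 within the 3 slides). Col4a6 differed by 0.73 ± 0.14 (adjusted p = 0.00088). Col4a5, Lamc1 and Nid1 also passed, but not in every fit without a sample, and the list's count fell to 2 without MC731, MC221 or MC943 and to 3 without MC753 or MC791. The collagen IV genes Col4a3 and Col4a4 of the mature membrane differed by 0.0048 and -0.09 and were not called.

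Interstitial matrix genes numbered 13 rises and 0 falls among 35 measured (median 0.50), 8 rises with another background correction. Col1a1, the main chain of collagen I, went from -3.66, -4.26, -3.39 and -3.45 to -0.28, -0.22, 0.46 and 0.91. The difference was 3.91 ± 0.58 (adjusted p = 5e-05). Fbln5, an elastic fibre protein, rose by 2.38 ± 0.35, Col16a1 by 2.03 ± 0.23, and Fn1, fibronectin, by 2.69 ± 0.60 (adjusted p = 4e-05, 1.6e-06 and 0.0046). Fn1 was not called with another background correction (0.83, adjusted p = 0.11) or with the 8 arrays alone in the fit (adjusted p = 0.064). Enzymes that crosslink collagen and elastin rose beside them: Loxl1 went from between -0.05 and 0.99 to between 2.30 and 2.57 (2.02 ± 0.24), and Lox differed by 1.62 ± 0.29 (adjusted p = 1.9e-06 and 0.00052). Sparc, the matricellular protein with the highest day 0 signal on this list, differed by 0.14 ± 0.38 and was not called.

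Of 39 matrix proteases and their inhibitors 13 rose and 0 fell (median 0.72). Timp1, an inhibitor of metalloproteinases, stood at -1.98, -2.81, -2.77 and -2.51 and then at 3.24, 3.24, 2.89 and 3.59, a difference of 5.76 ± 0.33 (adjusted p = 1.4e-11). Mmp2, gelatinase A, went from -2.70, -3.23, -2.86 and -1.81 to 0.55, 0.19, -0.29 and 0.34 (2.85 ± 0.34, adjusted p = 3e-06). Both pairs of groups were separate. Adamts4, a proteoglycan-cutting protease, differed by 2.83 ± 0.61, and Adamts1 by 1.42 ± 0.30 (adjusted p = 0.0036 and 0.0032). Plaur, the receptor of urokinase, went from -3.75, -3.54, -1.81 and -3.49 to 0.39, 1.16, 0.88 and 1.57. It differed by 4.14 ± 0.87 (adjusted p = 0.0026).

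**Figure D4:**
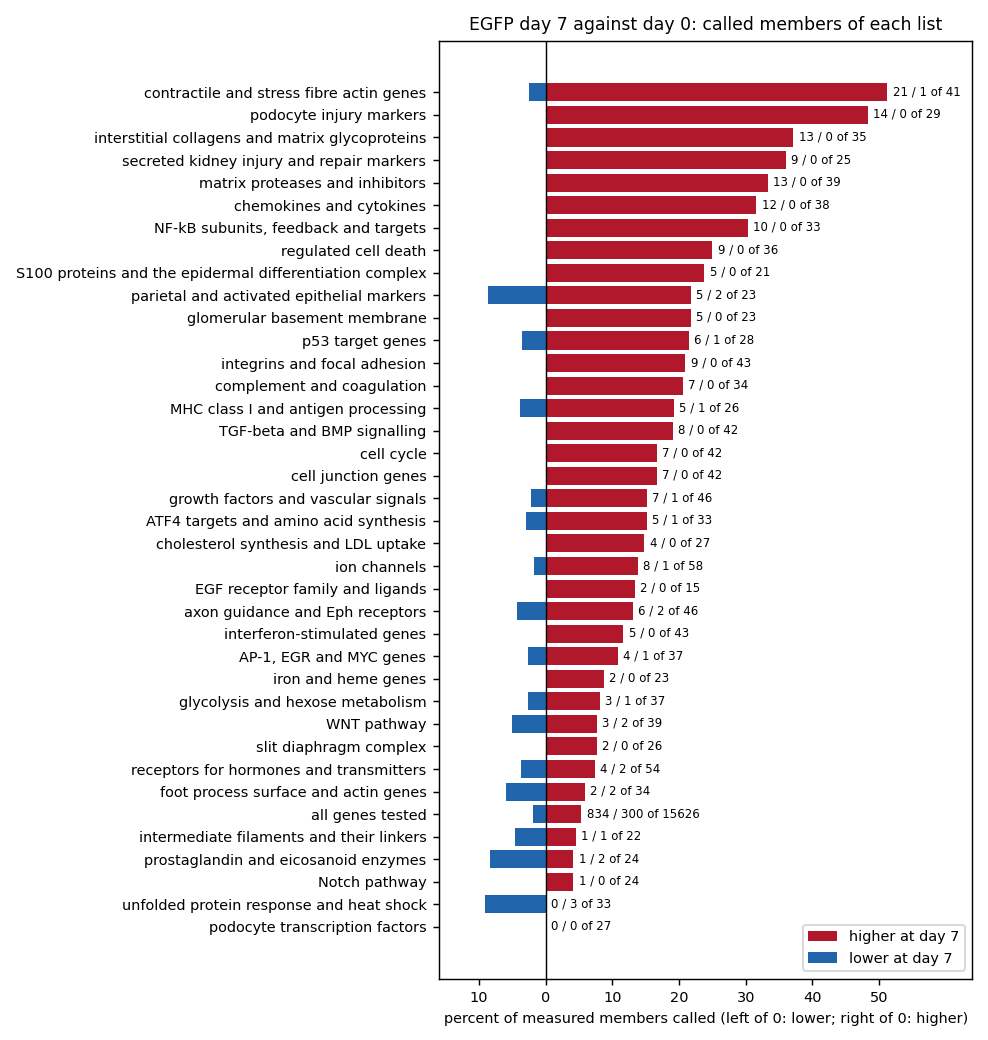
Percent of the measured members of 37 gene lists that rose (red, right of 0) or fell (blue, left of 0) in EGFP podocytes between day 0 and day 7, with counts of rises and falls at the right of each bar and all 15626 genes as one of the bars. Contractile genes stand at the top with 21 of 41 higher, all genes tested at 5.34%, and podocyte transcription factors at the bottom with 0 of 27. The lists were written with earlier results of these data known, so the order of the bars is no test.

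Contractile and stress fibre genes had the largest share of rises of the 37 lists, 21 of 41 measured, with 1 fall (median 1.04, and 1.15, 0.96 and 0.79 within the 3 slides). The lists were written with earlier results of these data known, and members dim at day 0 could pass the filter through later arrays. The order of the lists is thus no test of them. Tagln, transgelin of smooth muscle, was high already at day 0 (5.37, 4.56, 4.94 and 4.47) and reached 9.86, 9.29, 9.24 and 9.31 (4.59 ± 0.34, adjusted p = 1.6e-09). Cnn1, calponin, was not above background at day 0 and reached -1.65, -0.60, -2.05 and -0.47, at least 14.9-fold more (adjusted p = 8.6e-06). Acta2, smooth muscle actin, went from -0.16, -1.06, 0.14 and -0.06 to 2.08, 1.83, 2.52 and 2.33 (2.47 ± 0.41, adjusted p = 0.00023). All day 7 values of the 3 genes lay above the day 0 values. The rule for the largest rises required this of Tagln and Cnn1.

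The same direction was seen in actin crosslinkers, myosin and tropomyosin. Flna, filamin A, went from 4.74, 3.71, 4.19 and 4.30 to 7.58, 7.20, 7.23 and 7.70 (3.19 ± 0.24). Pdlim7, a LIM protein on actin, differed by 3.26 ± 0.33, Tpm2 by 2.69 ± 0.28, Myl9 by 2.65 ± 0.51, Actn1 by 1.99 ± 0.26 and Cald1 by 1.86 ± 0.30 (adjusted p = 1.6e-09, 2.5e-07, 4e-07, 0.0011, 1.2e-05 and 0.00017). Ankrd1, a nuclear ankyrin protein that responds to stretch, went from 0.81, 0.00, -0.31 and 0.35 to 3.95, 4.28, 3.84 and 5.02 (4.06 ± 0.43, adjusted p = 4.4e-07). The 1 fall was Csrp2 (-0.54 ± 0.14), a call lost without MC122, MC742 or MC221. Cnn1, Des and Acta2 are also markers of mesangium and smooth muscle. Of the 20 measured markers of those cells these 3 rose and 0 fell, the median change was -0.14, and the summed signal was 27.4 to 43.7 at day 0 and 43.2 to 56.4 at day 7. Pdgfrb, the receptor that defines mesangial cells, differed by -0.10 and was not called. The part of mesangial RNA in the contractile rises was not tested.

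Of 22 intermediate filament genes Des alone rose, and Krt7 fell by 0.44 ± 0.12, a call lost without MC122, MC753, MC221 or MC791. Vim, vimentin, and Nes, nestin, both of them filaments of healthy podocytes, differed by 0.67 ± 0.26 and 0.39 ± 0.21 (adjusted p = 0.14 and 0.34). Integrin and focal adhesion genes counted 9 rises and 0 falls among 43 (median 0.40). Itga11, a collagen receptor chain, went from -3.40, -3.71, -2.82 and -2.36 to -0.46, -0.99, -0.60 and -0.60 (2.41 ± 0.26, adjusted p = 5.1e-07). Itga5, the fibronectin receptor chain, differed by 2.29 ± 0.30 (adjusted p = 8.1e-06). Itga3, the partner of Itgb1 in the laminin receptor of podocytes, differed by 0.26 ± 0.23 and was not called. Caveolae, the small flask-shaped pits of the plasma membrane, were represented by Cav1 (3.31 ± 0.50), Cav2 (3.96 ± 0.66) and Cavin3 (3.07 ± 0.28, from between 1.04 and 1.86 to between 4.22 and 5.0), besides Cav3 above (adjusted p = 6.9e-05, 0.00021 and 5.8e-08). Cavin1, a coat protein of the same pits that was bright at day 0, differed by 0.40 ± 0.22 and was not called (adjusted p = 0.36). Its other probe differed by 0.90.

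Of 45 genes of the S100 family and the epidermal differentiation complex on the array, 21 passed the filter on dim probes. Among these 21, 5 rose and 0 fell (median 0.24). Beside S100a6 and Crct1 these were S100a3, which went from -3.78, -5.10, -4.61 and -4.60 to -0.46, -0.31, -0.59 and -0.14 (4.15 ± 0.46), S100a4, a marker of fibroblasts and migrating cells (3.76 ± 0.43), and Sprr1a, a cornified envelope protein that also appears in injured neurons (3.17 ± 0.57, adjusted p = 9.7e-07, 1.3e-06 and 0.00051). Lgals3, the lectin galectin-3, went from -1.89, -2.51, -1.54 and -1.50 to 2.64, 2.66, 3.20 and 3.85, a difference of 4.95 ± 0.33 (adjusted p = 2.6e-10). In total 14 of 29 genes listed as podocyte injury markers rose, S100a6 among them, and 0 fell (median 1.11). S100a6 and Crct1 were given as markers beforehand. A gene dim at day 0, such as Crct1, could pass the filter through later arrays. The counts of both lists are thus no test of them.

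Chemokines and cytokines counted 12 rises and 0 falls among 38 measured (median 0.69), and 7 rises without MC753 or without MC943. Cxcl10, which draws T cells and macrophages, went from -0.08, -0.21, 0.63 and 0.54 to 5.09, 4.85, 3.72 and 4.80 (4.40 ± 0.45, adjusted p = 3e-07). Csf1, the macrophage growth factor, went from -1.30, -1.09, 0.31 and -0.34 to 3.36, 3.74, 2.93 and 4.02 (4.12 ± 0.47, adjusted p = 1.2e-06). Cxcl1, a neutrophil chemokine, went from 0.27, -1.30, 0.11 and -0.10 to 2.78, 2.28, 2.85 and 3.02 (2.99 ± 0.52, adjusted p = 0.00038). The day 7 values of all 3 lay above their day 0 values. Tnfsf15, a TNF-family ligand, differed by 2.73 ± 0.28, Cxcl12 by 1.39 ± 0.25 and Il34, another ligand of the CSF1 receptor, by 0.74 ± 0.16 (adjusted p = 2.8e-07, 0.00056 and 0.0031). Ccl5 stood at 0.14, -0.00 and 0.43 in 3 day 7 mice and at -2.69 in MC824, against -4.54 to -3.53 at day 0 (3.35 ± 0.73, adjusted p = 0.0039).

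Genes of the NF-kB pathway, which carries the signals of TNF and Toll-like receptors to the nucleus, counted 10 rises and 0 falls among 33 (median 0.61). Icam1, the adhesion molecule for leukocytes, went from -6.65, -6.17, -4.53 and -3.96 to -0.28, -1.04, -1.84 and -0.24 (4.48 ± 0.56, adjusted p = 4.7e-06). Tlr2, a receptor for microbial and damage signals, went from -4.81, -4.67, -3.27 and -3.15 to -0.03, -0.47, -0.51 and -0.03 (3.71 ± 0.48, adjusted p = 8.6e-06). Bcl3, a nuclear partner of p50 and p52, went from -0.37, -1.1, -0.09 and -0.11 to 2.16, 2.74, 4.03 and 3.34 (3.49 ± 0.42). The groups stood apart in all of them. Nfkbie, an inhibitor of the pathway, rose by 2.41 ± 0.31, and Nfkb2, the p52 subunit, from between 1.37 and 1.74 to between 2.99 and 3.27 (1.49 ± 0.20, adjusted p = 3.4e-06 for Bcl3, 8.6e-06 and 1.6e-05). Nfkbia, another inhibitor of the pathway and bright at day 0, differed by 0.18 ± 0.27 and was not called. Tlr2 and Icam1 are also expressed by leukocytes. Of 25 measured myeloid markers limma called 0 higher (1 at an unadjusted p under 0.05) and 1 lower. Of the 25, 7 were above background on all 8 arrays and 8 on none (among them C1qa, C1qc, Lyz2, Spi1 and Itgax). The summed signal of the 25 was 38.1 to 66.3 at day 0 and 23 to 41.9 at day 7. The part of leukocyte RNA in the rises of Tlr2 and Icam1 was not tested.

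Of 37 AP-1, EGR and MYC genes 4 rose and 1 fell (median -0.08). Fosl1, the AP-1 subunit FRA1, went from -2.61, -3.75, -3.20 and -3.12 to -1.05, -0.51, -0.60 and 0.48 (2.75 ± 0.41, adjusted p = 5e-05). Klf5, a zinc finger factor of growing epithelia, differed by 3.08 ± 0.66 (adjusted p = 0.0031). Jun, the AP-1 subunit with the highest day 0 signal on the list, differed by -0.14 ± 0.28 and was not called.

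The 250 bases ahead of the RefSeq start of 3 genes with large rises are shown because they hold matches to the motif letters given below. Cxcl10 lies on the minus strand at chr5:92348890-92349139, Mmp10 on the plus strand at chr9:7502092-7502341 and Ankrd1 on the minus strand at chr19:36119845-36120094 (GRCm38.p6, RefSeq). Each is written 5′ to 3′ along the gene, with motif matches in capitals.
Cxcl10: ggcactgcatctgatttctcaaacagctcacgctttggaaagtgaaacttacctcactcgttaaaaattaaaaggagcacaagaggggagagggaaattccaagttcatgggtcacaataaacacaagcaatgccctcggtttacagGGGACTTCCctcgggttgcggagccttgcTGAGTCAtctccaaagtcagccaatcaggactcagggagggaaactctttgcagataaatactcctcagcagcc
Mmp10: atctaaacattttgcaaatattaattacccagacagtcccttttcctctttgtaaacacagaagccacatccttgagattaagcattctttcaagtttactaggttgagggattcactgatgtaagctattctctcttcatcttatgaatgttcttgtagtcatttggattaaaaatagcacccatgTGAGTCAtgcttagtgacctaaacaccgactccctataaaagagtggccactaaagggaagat
Ankrd1: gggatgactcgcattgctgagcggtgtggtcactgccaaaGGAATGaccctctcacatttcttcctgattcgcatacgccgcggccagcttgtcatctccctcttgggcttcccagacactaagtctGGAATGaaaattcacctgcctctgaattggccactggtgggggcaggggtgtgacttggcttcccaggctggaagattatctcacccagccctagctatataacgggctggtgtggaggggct

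In Cxcl10 the capitals mark an NF-kB match from -103 to -95 and an AP-1 match from -74 to -68, counted back from the start. In Mmp10 they mark an AP-1 match from -63 to -57, and in Ankrd1 a pair of TEAD matches from -210 to -205 and from -123 to -118. The letters searched on both strands were TGANTCA (AP-1), GGGANTTCC and GGGGNTTCC (NF-kB), GGAATG (TEAD), TGACGTCA (CRE) and the CArG box of serum response factor, and none of these motifs contains another. Promoter windows of 250 bases were at hand for 638 of the 834 genes that rose (849 windows), 235 of the 300 that fell (293 windows) and 12406 of all genes tested (15595 windows). The AP-1 letters were in 6.83% of windows of genes that rose, 2.73% of those that fell and 5.03% of all. The NF-kB letters were in 4.95%, 4.44% and 3.46%, TEAD in 13.7%, 11.6% and 11.3%, CRE in 1.53%, 2.39% and 2.33%, and the CArG box in 1.18%, 0.683% and 1.37%. These shares describe letters in a window and not binding. Longer forms of a motif were not searched, such as gggaaattcc in the Cxcl10 window, which stays unmarked. The windows of Des, S100a6, Col5a3, Cnn1, Tgfb2, Icam1 and Csf1 held none of the 5 motifs.

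In the TGF-beta and BMP list 8 of 42 rose and 0 fell (median 0.06). Tgfb2 went from -0.34, -0.37, -0.83 and -0.92 to 3.42, 3.98, 2.90 and 4.03, and Tgfb3 from -0.54, -1.09, -0.90 and -0.37 to 3.62, 3.68, 2.40 and 4.04. The ligands differed by 4.2 ± 0.40 and 4.16 ± 0.36, and Tgfb1 by 1.78 ± 0.24 (adjusted p = 9.5e-08, 1.8e-08 and 1.6e-05). Bmp4 differed by 1.79 ± 0.37, and the secreted binders of this family Fstl1 and Fstl3 by 1.23 ± 0.18 and 1.1 ± 0.19 (adjusted p = 0.0024, 5.2e-05 and 0.0003).

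Of 46 growth factors and vascular signals 7 rose and 1 fell (median 0.09). Pdgfa, a mitogen of mesangial cells, went from -0.83, -0.70, 0.10 and -0.26 to 2.24, 2.42, 2.73 and 2.77 (2.96 ± 0.29, adjusted p = 1.8e-07). Igfbp2, a binder of insulin-like growth factors, went from -1.0, -1.46, 0.22 and -0.59 to 2.95, 2.42, 2.11 and 2.42 (3.18 ± 0.33, adjusted p = 4e-07). Gdnf, the RET ligand of kidney development, differed by 1.70 ± 0.41 (adjusted p = 0.01). In the EGF family 2 of 15 rose: Nrg1, neuregulin, went from -4.53, -6.52, -4.68 and -4.96 to -0.98, -1.51, -2.94 and -2.02 (3.31 ± 0.47, adjusted p = 3.2e-05), and Hbegf differed by 1.18 ± 0.35, a call kept only without MC742, MC791 or MC824. The WNT list held 3 rises and 2 falls among 39 (median -0.06). Nkd1, a feedback inhibitor of WNT signalling, rose by 1.39 ± 0.29 and Znrf3, a ligase that removes WNT receptors, fell by 0.95 ± 0.19 (adjusted p = 0.0023 and 0.0019). Of 24 Notch genes Lfng, which adds sugars to Notch, alone rose (1.83 ± 0.24, adjusted p = 1.3e-05).

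Axon guidance and Eph genes held 6 rises and 2 falls among 46 (median -0.08), and 3 rises without MC943. Sema7a, a membrane-anchored semaphorin that binds integrins, went from 0.01, -0.99, -0.14 and -0.51 to 5.05, 4.51, 3.16 and 4.72, a difference of 4.77 ± 0.43 (adjusted p = 3.3e-08), the opposite direction to Sema3g. Of 42 cell junction genes 7 rose and 0 fell (median 0.27). Cgn, cingulin of tight junctions, went from -2.42, -2.95, -2.89 and -2.24 to 2.08, 1.62, 0.91 and 1.76 (4.22 ± 0.30, adjusted p = 1.2e-09). Nectin1, an adhesion molecule of adherens junctions, differed by 2.40 ± 0.32, and Cldn1, the claudin of parietal cells, went from -2.94, -2.36, -1.02 and -2.16 to -0.43, 0.45, -0.20 and 0.81 (2.27 ± 0.48, adjusted p = 1.3e-05 and 0.003). Of 23 parietal and activated epithelial markers 5 rose and 2 fell (median 0.49). Within the 3 slides the median was 0.49, -0.15 and 1.99, the last in the slide of MC221, the mouse with the high distal nephron sum, whose part was not tested. Akap12, a kinase anchor, rose by 2.71 ± 0.31 (adjusted p = 1.5e-06). Cd44, a hyaluronan receptor of activated parietal cells, rose by 1.18 ± 0.29 (adjusted p = 0.011), a call lost without MC731 (1.05). Of the 12 measured markers that define parietal cells 1 rose (Cldn1) and 1 fell (median 0.27, and 0.38, -0.24 and 1.95 within the 3 slides). Pax2, Krt8 and Krt18 were among those not called.

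Receptors for hormones and transmitters held 4 rises and 2 falls among 54 (median 0.06), and 2 rises with another background correction. F2r, the thrombin receptor PAR1, went from between 4.68 and 5.13 to between 6.17 and 6.35 (1.33 ± 0.17, adjusted p = 7.5e-06). Ion channel genes held 8 rises and 1 fall among 58 (median 0.14). Besides P2rx5 the ATP-gated channel P2rx7 went from -3.63, -3.41, -2.37 and -2.60 to 0.99, 1.06, 2.18 and 1.30 (4.38 ± 0.40, adjusted p = 3.8e-08). Panx1, a channel that releases ATP, differed by 1.08 ± 0.22, and the chloride channel proteins Clic1 and Clic4 by 1.04 ± 0.20 and 1.04 ± 0.25 (adjusted p = 0.0023, 0.0013 and 0.0082).

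Stress pathways moved in different directions. Of 33 targets of ATF4, the factor that raises amino acid synthesis under stress, 5 rose and 1 fell (median 0.21). Psat1, an enzyme of serine synthesis, went from -1.64, -2.03, -1.69 and -1.29 to 2.56, 2.48, 2.64 and 3.13 (4.36 ± 0.24, adjusted p = 1e-11). Phgdh, the first enzyme of that pathway, went from -1.02, -1.0, -0.02 and -0.02 to 2.16, 1.42, 1.41 and 2.50 (2.39 ± 0.29, adjusted p = 3.1e-06). Chac1, which breaks down glutathione, differed by 3.11 ± 0.52, and Asns, asparagine synthetase, by 1.41 ± 0.33 (adjusted p = 0.00021 and 0.0066). Atf4 itself differed by 0.06 ± 0.21 and was not called, and Ddit4, an inhibitor of mTORC1, fell by 1.18 ± 0.28 (adjusted p = 0.0079). Of 33 unfolded protein response and heat shock genes limma called 0 higher (0 at an unadjusted p under 0.05) and 3 lower (median -0.31). Hspa5, the chaperone BiP, stood at 7.45, 7.25, 7.51 and 7.62 and then at 6.82, 6.87, 6.71 and 7.06 (-0.59 ± 0.14, adjusted p = 0.0075), without overlap. The calls of the chaperone partners Sdf2l1 and Creld2 were lost in 6 and 2 of the 8 fits, and the count fell to 1 without MC753 or MC824. Ddit4 and Hspa5 missed the threshold when the 8 arrays alone entered the fit (adjusted p = 0.055 and 0.054).

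Of 28 p53 targets 6 rose and 1 fell (median -0.02). Plk2, a kinase, went from -2.29, -3.15, -1.97 and -2.77 to 0.51, 0.48, 0.98 and 1.76 (3.48 ± 0.52, adjusted p = 5.3e-05), and Phlda3, an inhibitor of AKT, differed by 1.81 ± 0.30 (adjusted p = 0.0002). Cdkn1a, the cell cycle inhibitor p21, differed by 1.71 ± 0.50 (adjusted p = 0.036), a call kept only without MC122 or MC742 (1.38 to 2.15 over the 8 fits). Of 36 genes of regulated cell death 9 rose and 0 fell (median 0.37). Fas, the death receptor, went from -3.62, -3.20, -1.99 and -2.36 to -1.41, -0.59, -0.61 and -0.40 (2.04 ± 0.36), Bid, its cytoplasmic relay, rose by 1.79 ± 0.28, Ripk3, the kinase of necroptosis, by 1.77 ± 0.41 and Gsdmd, the pore protein of pyroptosis, by 0.88 ± 0.17 (adjusted p = 0.00044, 0.0001, 0.0063 and 0.0014). Mcl1, an inhibitor of apoptosis with high day 0 signal, was not called.

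Interferon-stimulated genes held 5 rises and 0 falls among 43 (median 0.35), and 3 rises without MC731. Gbp2, a GTPase of host defence, went from 2.04, 1.56, 2.52 and 2.01 to 3.24, 3.18, 3.26 and 3.47 (1.25 ± 0.22), and Ddx58, the RNA sensor RIG-I, differed by 1.1 ± 0.18 (adjusted p = 0.00046 and 0.00019). Of 26 MHC class I and antigen processing genes 5 rose and 1 fell (median 0.44). The immunoproteasome subunits Psmb8 and Psmb10 rose by 1.73 ± 0.40 and 1.30 ± 0.28 (adjusted p = 0.0067 and 0.0037). The class I genes H2-K1 and H2-Q7 went opposite ways, H2-K1 from 6.31, 6.06, 6.5 and 6.11 to 7.05, 7.50, 6.97 and 7.46 and H2-Q7 from 8.45, 8.20, 8.64 and 8.29 to 7.48, 7.88, 7.71 and 7.55 (1.00 ± 0.22 and -0.74 ± 0.15, adjusted p = 0.004 and 0.0017). Class I genes are near-identical in sequence, and a probe can bind the RNA of more than one of them. Of 34 complement and coagulation genes 7 rose and 0 fell (median 0.01). Clu, clusterin, an inhibitor of complement, went from 1.86, 1.54, 2.35 and 2.71 to 5.93, 5.8, 7.38 and 7.01 (4.41 ± 0.48). C1ra and C1s1, the proteases of the classical pathway, differed by 1.85 ± 0.33 and 1.95 ± 0.40, and F3, tissue factor, by 1.49 ± 0.25 (adjusted p = 6.3e-07 for Clu, 0.00056, 0.0019 and 0.00025).

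Of 42 cell cycle genes 7 rose and 0 fell (median 0.20), and 4 rose without MC943. Ccnd1, cyclin D1 of the G1 phase, went from 0.59, 0.63, 1.26 and 1.19 to 4.2, 4.33, 3.99 and 4.67 (3.38 ± 0.30, adjusted p = 3.5e-08). Its partner Cdk6 differed by 1.71 ± 0.33 and the inhibitor Cdkn2b by 2.45 ± 0.50 (adjusted p = 0.0012 and 0.0019). Of 27 cholesterol genes 4 rose and 0 fell (median 0.16). Sqle, squalene epoxidase, differed by 1.86 ± 0.17 (adjusted p = 5e-08). Of 37 glycolysis and hexose genes 3 rose and 1 fell (median 0.20). Pdk4 and Pdk2, kinases that hold pyruvate back from the mitochondria, went opposite ways, by 2.45 ± 0.34 and -0.70 ± 0.17 (adjusted p = 2.3e-05 and 0.01, the latter 0.056 with the 8 arrays alone in the fit). Of 23 iron and heme genes 2 rose and 0 fell (median 0.08), Slc40a1, the iron exporter ferroportin, by 1.56 ± 0.38 (adjusted p = 0.0098). Of 24 prostaglandin and eicosanoid enzymes 1 rose and 2 fell (median -0.09), and of 25 secreted kidney injury markers 9 rose and 0 fell (median 0.49).

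Cubn, the receptor cubilin that podocytes and proximal tubule use to take up albumin, was the only one of 25 measured proximal tubule markers to be called. It went from -4.10, -5.83, -3.66 and -3.62 to -2.12, -2.26, -1.77 and -1.72, without overlap (2.33 ± 0.35, adjusted p = 5.8e-05). Its co-receptor Lrp2, megalin, was not called.

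How much of the day 7 state was present earlier was asked by setting day 7 against the EGFP cells of day 4, another 4 mice that share no sample with day 0. The same 4 day 7 samples enter both contrasts. A gene picked for high day 7 values is thus favoured to lie above day 4 as well. Day 7 was higher than day 4 in 463 genes (2.96%) and lower in 268 (1.72%), the latter 174, 166 and 153 without MC151, MC823 and MC943. Crct1 stood at 0.95, 0.06, 2.06 and 0.74 at day 4 and rose by a further 4.48 to day 7 (adjusted p = 3.5e-05). S100a6 stood at 3.17, 2.45, 4.73 and 3.21 and rose by a further 4.53 (adjusted p = 2.3e-07). Both genes thus lay between their day 0 and day 7 values in all 4 day 4 mice.

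Other genes were near their day 0 level at day 4 and high at day 7. Epha6 stood at -4.72, -4.24, -3.42 and -6.01 at day 4 (above background on 2 arrays), 4.55 under day 7 (adjusted p = 2.2e-07). Pak3, a kinase of the actin skeleton, was above background on no day 4 array and at least 7.66-fold higher at day 7 (adjusted p = 1.5e-07). Tgfb2, with a day 4 mean of -0.45, was in the same position. Still other genes were highest at day 4. Tmem179, a membrane protein, stood at -0.24, -2.06, -0.72 and -0.82 at day 0, at 2.86, 2.49, 1.61 and 2.23 at day 4 and at -2.19, -0.58, -0.85 and -0.90 at day 7, a fall of 3.43 from day 4 (adjusted p = 1.4e-05). Fgd2, an exchange factor for CDC42, and Ednra, the endothelin A receptor, were above background on all 4 day 4 arrays and on no day 7 array, and their signal was at least 3.10-fold and 3.69-fold higher at day 4 (adjusted p = 1.5e-05 and 1.6e-05). P2rx7 also stood higher at day 4 (2.95, 3.98, 2.67 and 2.61) than at day 7, by 1.67 (adjusted p = 0.012), although it was above day 0 at both times. Thbs4 (1.61, 1.30, 1.32 and 1.20 at day 4) was not called between day 4 and day 7 (adjusted p = 0.22).

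The last question was whether the EGFP cells changed as the toxin-bound TdTomato cells did. In TdTomato cells 1703 genes were higher (10.9%) and 1323 lower (8.47%) at day 7 than at day 0, with 2 and 4 samples. The 2 contrasts share no array, but the day 0 mice are the same and so are MC221 and MC791. Of the 834 genes that rose in EGFP cells, 514 (61.6%) were also called higher in TdTomato cells, which is 30.2% of the TdTomato calls. Of the 300 that fell, 203 (67.7%) were called lower in TdTomato cells as well, 15.3% of its calls, and 6 were called higher. S100a6 stood at 7.54 and 7.34 in the 2 TdTomato mice, Crct1 at 5.16 and 5.19 and Des at 0.86 and 1.28, none of them above the highest EGFP mouse of day 7.

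**Figure D5:**
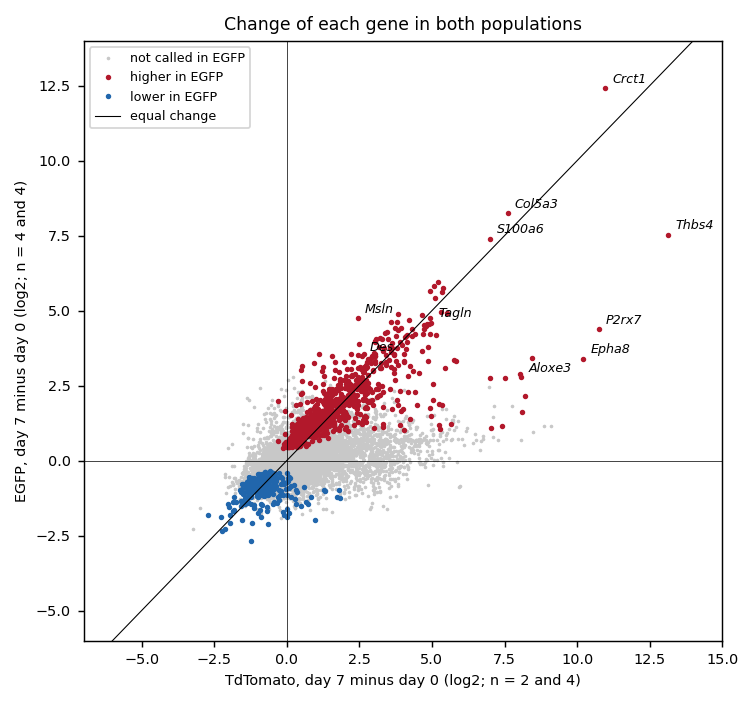
Change from day 0 to day 7 of 15626 genes in TdTomato cells (horizontal axis, log2, n = 2 and 4) and EGFP cells (vertical axis, log2, n = 4 and 4), with genes that rose in EGFP cells in red, those that fell in blue and a line of equal change. Crct1, Col5a3 and S100a6 lie near the line, while Thbs4, P2rx7, Epha8 and Aloxe3 lie far to its right.

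The test of the difference between both changes called 6 genes with the EGFP change above the TdTomato change (0.0384%) and 414 with it below (2.65%). With each mouse as a random replicate block, which uses the pairing of EGFP and TdTomato cells of one mouse, these counts were 389 and 1075. The first count was 30 without the EGFP sample of MC221 at day 7, and 2 without MC731, MC742, MC824 or MC943 among the EGFP samples or MC122 among the TdTomato samples, and 3 without the TdTomato sample of MC221 at day 7. Among the 834 genes that rose in EGFP cells, 26 had a change called below that of TdTomato cells. Other genes of the 414, outside these 26, were above background at day 7 in TdTomato cells alone. Il31, a cytokine, stood at 1.65 and 1.53 in TdTomato cells at day 7, at least 76.8-fold above EGFP cells, and Prl2a1, a prolactin relative, at 1.74 and 2.52, at least 112-fold above (adjusted p of the difference in change = 2.3e-06 and 3.3e-08). Neither was above background on any EGFP array of day 0 or 7.

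Some genes that rose in EGFP cells stood at a small share of their TdTomato level. Thbs4 was at 6.72 and 6.57 in the TdTomato cells of day 7, so EGFP cells had 1.35% of that level (adjusted p of the difference in change = 2.4e-06). P2rx7 was at 7.77 and 7.74, with EGFP cells at 1.21% (change smaller by 6.36, adjusted p = 9.3e-07). Epha8, an ephrin receptor, was at 4.47 and 3.96 there, with EGFP cells at 0.769%, and Aloxe3, a lipoxygenase of skin, at 3.23 and 2.99, with EGFP cells at 2.57% (adjusted p = 0.00045 and 0.0005). The rises of Epha8 and Aloxe3 in EGFP cells (at least 4.87-fold, and 2.77 ± 0.56) were not called with another background correction (adjusted p = 0.72 and 0.10). In all, 18 of the 834 genes stood under 10% of their TdTomato level, and the rise of 15 was under 5% of the TdTomato rise. Most of the 834 were not of this kind: 625 stood at or above their TdTomato day 7 level and 777 at 50% or more. The median was 122% of the TdTomato level. The 834 were picked for high day 7 values in EGFP cells, which favours a high share, and the share over all genes was not computed. Genes not called in EGFP cells lay on either side of their TdTomato level, such as Nphs1 (115%), Wt1 (117%) and Sparc (79.4%). The part of TdTomato RNA in these 18 genes was not tested.

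How many genes lay in the other direction depended on the fit, 6 without the mouse as a block and 389 with it. The 6 had all fallen in TdTomato cells, and none of them was called in EGFP cells. Dnal1, a dynein light chain, and Taf1a, a subunit of the RNA polymerase I machinery, were among them (adjusted p = 0.029 and 0.0065). Both were above background on all day 0 arrays and on neither TdTomato array of day 7, where EGFP cells stood at least 2.30-fold and 1.95-fold higher. Msln, not above background at day 0 in either population and above it at day 7 in all 4 EGFP samples and 1 of 2 TdTomato samples, did not pass (adjusted p = 0.096), but did with the mouse as a replicate block (0.024).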

How the data were processed

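Each sample is a one-colour Agilent mouse array of sorted podocyte RNA. Per the labels, sorting was done on a FACSAria, RNA was taken up in TRIzol LS and 0.1 µg was labelled with Cy3 (Agilent's LowInput QuickAmp kit). Agilent Feature Extraction 11.5.1.1 read the intensity of each spot, per the file headers, and gave the background-subtracted processed signal that was deposited. The authors also deposited a series matrix of log2 values, whose scaling the labels do not give. Of its 29 columns 27 match their scanner files, the 2 of mouse MC221 at day 7 do not, and it served only as an alternative.

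The processed signal was turned into log2 and the array's 75th percentile over non-control spots was subtracted. Spots marked as outliers were left out. Probes entered the fit if well above background on at least 3 of 29 arrays. Probes were named by RefSeq accession: 26582 had 1 symbol, 29099 none and 0 several, and the brightest probe stood for a gene. Limma 3.58.1 (R 4.3.3) fitted 8 group means to all 29 arrays, with Benjamini-Hochberg adjustment, and the fit was tested on simulated data. The number of arrays limits the precision. Mouse numbers pair EGFP and TdTomato samples of one mouse. Deviations of such pairs correlated at 0.04 (MC823) to 0.64 (MC122), and the mouse entered as a random replicate block as an alternative. Day 0 and day 7 samples share no mouse. Other alternatives were normexp (offset 50, on the median signal in place of the planned mean signal), quantile normalization, a strict or absent filter on dim probes, the mean of a gene's probes, the compared groups alone, slide as a block, the series matrix and leaving out each sample.

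Named are Des, S100a6, Crct1, a set of podocyte genes, the 20 largest rises and 12 largest falls among called genes whose groups do not overlap and that are detected on all arrays of the higher group (clone names passed over), up to 5 called members per direction and up to 3 uncalled bright members of each of 37 gene lists, and the 6 largest of the other contrasts. Of 175 genes in the text 39 fall outside this rule and were chosen after their values were seen. The samples, lists and rules were chosen with earlier results of these data known. Some genes under the rule are not reported here. Promoter windows come from RefSeq on GRCm38.p6. Tables and figures were made in Python 3.11.15 with numpy 2.4.6, pandas 2.3.3 and matplotlib 3.10.9. Samples are separate mice per the labels.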

Additional observations from a re-analysis of the deposited data

Results flagged for a closer look

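In 368 groups of 4 samples, 23 held a mouse far from its 3 fellows, 1.25 per 20 groups where chance gives about 1. At day 0, MC122 was high in 4 of them: Atf4 at 8.43, Jun at 9.62, Sparc at 10.1 and the summed podocyte markers at 4634 stood above the other day 0 mice. In MC221 at day 7, Tagln (9.86), Krt8 (-3.41) and the summed distal nephron markers (50.05) were high and Podxl (6.44), Mcl1 (5.64), Itga3 (5.16) and Itga5 (-0.60) low against the other day 7 mice. At day 0, MC742 was high in Ednra (-4.43), Plaur (-1.81) and the summed erythrocyte and platelet markers (4.45) and low in Itga5 (-2.90), MC731 was low in Col16a1 (-3.38), and MC753 was high in Creld2 (5.77), Taf1a (-2.88) and Umod (0.43). At day 7, MC943 stood above the others in F2r (6.35), Nfkb2 (3.27) and Pak3 (-1.02), and MC824 below them in Ccl5 (-2.69).

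The test of EGFP change minus TdTomato change passed for Aloxe3 (-5.31), C1qa (-4.28), Epha8 (-6.82), Il31 (-7.54), Itgax (-4.27), P2rx7 (-6.36), Prl2a1 (-7.97), Thbs4 (-5.61), Dnal1 (1.71) and Taf1a (1.06). C1qa and Itgax, both myeloid markers, and Il31 and Prl2a1 were not above background on any EGFP array of day 0 or day 7, nor were Thbs4 and Epha8 at day 0 or Dnal1 and Taf1a on the TdTomato arrays of day 7, so these sizes depend on signals at background.

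Probes without a symbol stayed outside all gene counts. Of 17735 such probes past the filter, limma called 275 higher and 302 lower at day 7, a more even split than the 834 and 300 of named genes.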

How the results depend on the processing

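Of 2346 values of the 138 called genes named in the text under the alternatives, 0 changed direction and 91 missed the threshold, and 118 of the genes kept the call under every alternative run. Of 37 genes not called, 9 passed under some alternative. For day 7 against day 0, genes higher (834) and lower (300) became 1436 and 1165 with slide as a block and 552 and 120 at an adjusted p under 0.01, and the lower genes 148 with only the groups compared. For day 7 against day 4, genes higher (463) and lower (268) became 791 and 1053 with slide as a block and 301 and 109 at an adjusted p under 0.01, and the lower genes 150 with only the groups compared and 176 in the series matrix. For the difference of EGFP and TdTomato changes, genes above (6) and below (414) became 1 and 166 with normexp, 153 and 691 with slide as a block and 389 and 1075 with the mouse as a random replicate block, and the genes above 18 with quantile normalization and 1 at an adjusted p under 0.01. The mouse block moved no other of these counts by over 1.5 times (782 and 269 for day 7 against day 0). Leaving out each sample gave 615 to 861 higher and 161 to 288 lower genes against day 0, 333 to 460 and 153 to 216 against day 4, and 2 to 30 above and 285 to 503 below for the difference. Where 1 TdTomato sample of day 7 was left, it was assumed to vary like the other groups. Over all 92 list counts, 1343 of 1564 alternatives lay within 1.5 times. Within slides, differences were computed after seeing the data. The cause of the slide block's larger counts was not tested.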
